A study of Mus musculus with 6 samples.

Results

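The Nodal and Lefty pathway genes described here are 10 genes of 1 signalling route: the ligands Nodal and Gdf3, the co-receptor Tdgf1, the receptors Acvr1b and Acvr2b, the signal transducers Smad2 and Smad3, their DNA-binding partner Foxh1, and the secreted inhibitors Lefty1 and Lefty2. They were chosen by gene symbol, and they are 10 of the 31310 genes with a usable isoform and 10 of the 13207 genes tested. The 10 genes have 39 usable isoforms. The cells were of the TT-FHAgo2 line, mouse embryonic stem cells of a single clone whose Argonaute 2 (Ago2), the protein that loads microRNAs, is controlled by the antibiotic doxycycline, and polyadenylated RNA was sequenced. The cells had been kept in 0.1 µg/mL doxycycline, on gelatin, with serum and leukemia inhibitory factor. In 1 group doxycycline was raised to 2.5 µg/mL for 48 h, which by the labels gives the wild-type amount of Ago2. In the other group the drug had been withdrawn for 96 h. Each group had 2 strand-specific libraries, numbered 0 and 1 in the deposited columns. The groups differ in drug, time and Ago2 together, so the contributions of these cannot be told apart, and the data come from 1 clonal line. The labels do not say whether the libraries of a group had separate cultures behind them. The p-values therefore reflect the spread between libraries alone, and that spread may be technical.

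Nodal is a secreted ligand of the TGF-beta family that signals through activin receptors and needs a co-receptor such as Tdgf1 (Cripto) to do so. The type II receptor Acvr2b binds ligand and activates the type I receptor Acvr1b, which phosphorylates Smad2 and Smad3; these join Smad4 and enter the nucleus, where Foxh1 brings them to target genes. Nodal and both Lefty genes are themselves targets, and because Lefty proteins block Nodal the circuit holds a positive and a negative feedback loop. In the early embryo the pathway is known for specifying mesendoderm and the left-right axis.

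The Lefty genes are known targets of the microRNAs that dominate mouse embryonic stem cells, the miR-290 cluster and the related miR-302 cluster. These are shown because Ago2 carries them and because their seed matches are a sequence feature that Lefty1 and Lefty2 share. Mature sequences are from RefSeq (GRCm38.p6), 5′ to 3′, with the seed (bases 2 to 8) in capitals.
miR-291a-3p: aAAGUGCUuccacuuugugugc
miR-294-3p: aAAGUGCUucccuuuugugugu
miR-295-3p: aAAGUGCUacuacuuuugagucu
miR-302b-3p: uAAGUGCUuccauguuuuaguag
miR-302d-3p: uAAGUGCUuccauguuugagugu
miR-290a-3p: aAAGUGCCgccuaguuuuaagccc
The 5 microRNAs named before miR-290a-3p have the same seed and are called the miR-291a-3p family here. The miR-290a-3p seed differs from theirs in its last base. The miR-290 to miR-295 sequences lie on chromosome 7 between 3218674 and 3220837 (plus strand), and both miR-302 sequences lie on chromosome 3 between 127545275 and 127545687 (plus strand). MicroRNA levels were not analysed here.

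Lefty1 and Lefty2 each hold a single 8mer for this family in the 3′ untranslated region, that is, a match to seed bases 2 to 8 followed by an A. The sequences come from the longest such region of each gene in GENCODE mouse release 21 (GRCm38), with the match in capitals.
Lefty1: cactgtatgcgaAGCACTTAcatgta
Lefty2: tcacccagtttaAGCACTTAcatggg
Nodal: accagagaggtgGGCACTTgtccaa
The Lefty1 match covers bases 238 to 245 after the stop codon of a region of 425 nt, and the Lefty2 match covers bases 104 to 111 of 1290 nt. Around the match both transcripts share the run aAGCACTTAcatg of 13 nt, with 1 shared base before the match and 4 after it. Such an 8mer was found in 621 of 21010 genes with an annotated region (2.96%). Among regions within 25% of the same length, 0.733% of 2318 held one for Lefty1 and 2.33% of 3512 for Lefty2. Nodal had no site of the miR-291a-3p family. Its printed site is a 7mer-m8 (seed match without the A) for miR-290a-3p at bases 595 to 601 of 702 nt, a kind of site found in 3.02% of 2918 regions of similar length.

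**Figure D1:**
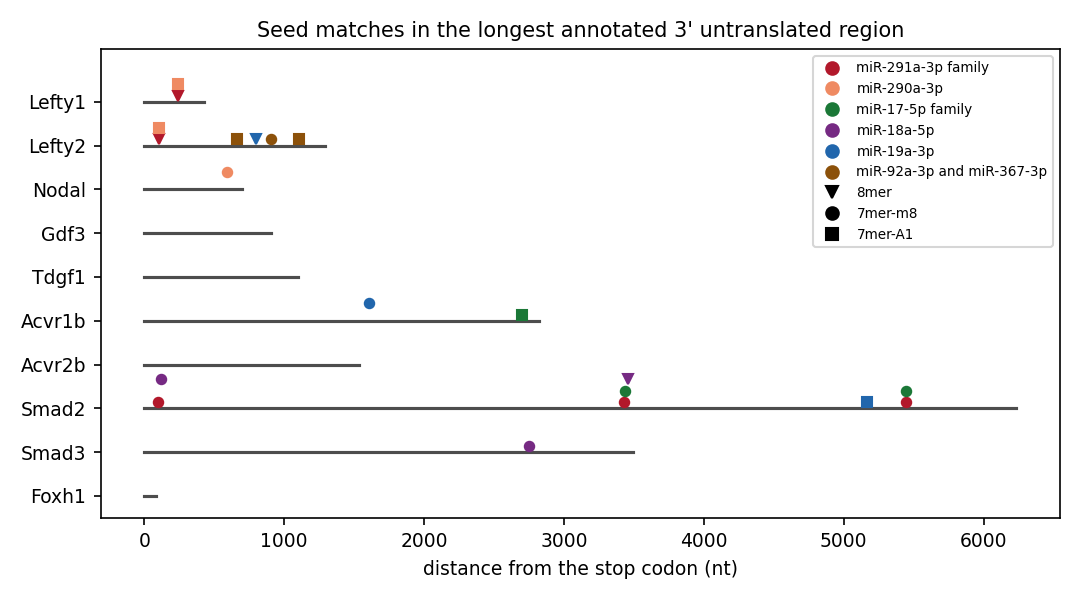
Seed matches of 6 microRNA seed families in the 3′ untranslated regions (longest annotated) of the 10 genes, drawn as distance from the stop codon in nt (horizontal axis, gene by row). Colour is the family and shape the site type. Of the 10 genes only Lefty1 and Lefty2 show an 8mer for the miR-291a-3p seed, and Smad2 holds 3 7mer-m8 sites of that family. Gdf3, Tdgf1, Acvr2b and Foxh1 hold none of any family, where the Foxh1 region is only 82 nt long.

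Smad2 was the other gene with sites of the family, and they were 3 7mer-m8 matches that begin at bases 95, 3433 and 5444 of a region of 6233 nt, which is long. The most abundant Smad2 isoform, of 2105 nt, is too short to hold the matches at 3433 and 5444. That isoform held 69.2% of the gene's FPKM with doxycycline and 67.5% without. A 7mer-m8 of the family is common, being present in 12.5% of all regions. The other 7 genes had no 8mer, 7mer-m8 or 7mer-A1 (bases 2 to 7 followed by an A) of the miR-291a-3p family. The Lefty pair differed in other families. Lefty2 also held an 8mer for miR-19a-3p at bases 799 to 806. For the seed of miR-92a-3p and miR-367-3p it held 1 7mer-m8 and 2 7mer-A1. Lefty1 held no site for these seeds. For Acvr2b the annotated region of 1534 nt is shorter than what its assembled isoform of 8847 nt would hold, and the rest was not searched. For Foxh1 only 82 nt were searched. Its assembled forms of 1327 and 1761 nt reach 76498588 at the 3′ end, past the 76498714 of its annotated form. A match is a description of the sequence and not evidence of binding.

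The values used were FPKM, fragment numbers scaled by isoform length and by library total, as the authors deposited them per isoform. They were summed over the isoforms of a gene. Errors are SD over n = 2 libraries. Each log2 change is the value without doxycycline minus the value with it on the scale of log2(FPKM + 0.5), where the change of low genes is understated, and its p is from limma with Benjamini-Hochberg adjustment over all 13207 genes at a threshold of 0.05. An exact permutation test of 2 against 2 libraries cannot give a two-sided p below 0.333, so none is given per gene. Fewer cells expressing a gene and less RNA per cell cannot be told apart in these bulk libraries.

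The whole table had a large number of changes. Of the genes tested, 41% passed limma, 19.7% higher and 21.3% lower without doxycycline, and the median log2 change was -0.06. The share of calls that were higher was 48.1%, 67.7% when values were rescaled to TPM (which moved the median change to 0.10) and 38% when library medians were set equal (median -0.12). The libraries numbered 1 stepped in whole fragments and had totals of 46.4 M fragments with doxycycline and 46.9 M without (M, mega), while the depth of those numbered 0 is unknown. The stem cell genes Pou5f1 and Nanog stood at 611.6 ± 51.8 and 342.9 ± 40.1 FPKM with doxycycline and at 552.3 ± 71.5 and 499.4 ± 71.5 without, so the labelled cell type carried its defining markers. Ago2 (Eif2c2 in the files), the gene under doxycycline control, measured 35.9 ± 0.996 FPKM with the drug and 28.7 ± 0.112 without (log2 change -0.32, SE 0.08, limma adjusted p = 0.0287). That fall was small, as the 25th percentile of the log2 change over all genes tested was -0.34. Whether these FPKM count the transcript that doxycycline controls was not examined here. The adjusted p of Ago2 was between 0.0751 and 0.206 with each of the 4 libraries removed in turn, and 0.0057 to 0.412 over 16 processing alternatives.

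Without doxycycline the 2 inhibitors of the pathway had the largest rises of the 10 genes. Lefty1 was 6.81-fold and Lefty2 5.46-fold higher, Smad3 1.89-fold, Nodal 1.6-fold, and the receptors Acvr1b and Acvr2b 1.37-fold and 1.29-fold. Of the 10 genes, 6 were called higher (background 19.7%), none was called lower (background 21.3%), and 4 were not called: Gdf3, Foxh1, Tdgf1 and Smad2. All 10 genes exceeded 1 FPKM in both groups, so none entered the test through its higher group alone. In 8 of the 10 both libraries without doxycycline lay above both with it, against 33.1% of all genes tested. These 10 genes were chosen with earlier results of the data known, so neither count is evidence by itself. The median log2 change of the 10 was 0.39, and 0.27 for the 8 genes other than Lefty1 and Lefty2.

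**Figure D2:**
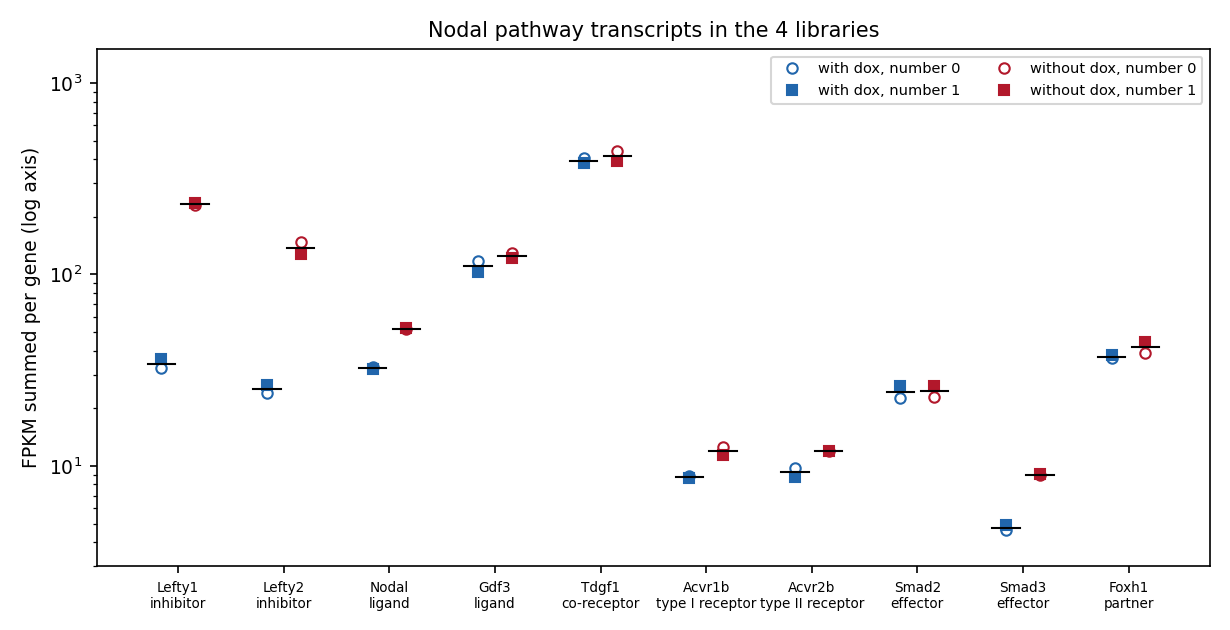
FPKM per gene (log axis) of the 10 genes in each of the 4 libraries, blue with and red without doxycycline, open circles for number 0 and squares for number 1, with a line at each group mean. Lefty1 moved from between 32.3 and 36.1 FPKM to between 229 and 236 FPKM, while the libraries of Tdgf1 and Smad2 overlapped.

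The inhibitors are described first. Lefty1 (chromosome 1, 182865142 to 182868531, plus strand, build NCBIM37) encodes a secreted antagonist that binds Nodal and its co-receptors. It measured 32.3 and 36.1 FPKM in the libraries with doxycycline and 229 and 236 FPKM in those without. The libraries without doxycycline were both high and close to each other, and the groups were far apart. The log2 change was 2.75 (SE 0.09, limma adjusted p = 0.00119), with 2.81 between the libraries numbered 0 and 2.70 between those numbered 1. By size of rise Lefty1 was number 9 of 13207 genes. In the libraries of known depth its values correspond to 2419 fragments with doxycycline and 15873 without, so counting error was small.

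Lefty2 (chromosome 1, 182823239 to 182829234, plus strand) encodes the paralogous antagonist and lies next to Lefty1 on the same strand. It measured 24.1 and 26.4 FPKM with doxycycline and 148 and 128 FPKM without. The groups did not overlap, and the 2 libraries without the drug were farther apart than for Lefty1. Its log2 change was 2.42 (SE 0.11, limma adjusted p = 0.00119), and it was number 20 by size of rise. It was represented by 2558 fragments with doxycycline and 13224 without in the libraries of known depth. Only 0.432% of genes tested were called higher with a log2 change of at least 2, and Lefty1 and Lefty2 were 2 of these 57 genes. They were also the only 2 of the 10 genes with a called rise of at least 1, where the background was 4.58%.

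Reads of the Lefty genes can be exchanged between them where their sequences are identical. Of the windows of 50 nt in the main Lefty1 transcript, 281 of 1571 (17.9%) occurred exactly in that of Lefty2, so the split of these reads is uncertain. For both genes a single isoform carried the signal. The Lefty1 form of 1620 nt held 94.2% of the gene's FPKM with doxycycline and 97.6% without, and the Lefty2 form of 2473 nt held 91.3% and 95.9%. The ratio of Lefty1 to Lefty2 was 1.34 and 1.37 with doxycycline and 1.55 and 1.85 without, so Lefty1 was the more abundant of the pair in every library.

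Among genes tested that have an annotated 3′ untranslated region, 356 had an 8mer for the miR-291a-3p seed as their best site, and 37.4% of them were called higher and 10.7% lower. Lefty1 had the largest rise of the 356 and Lefty2 was number 3. Of the 8030 genes with none of the 3 site types, 19.9% were called higher and 21.3% lower. The median log2 changes were 0.21 with an 8mer and -0.05 without a site. The rises of Lefty1 and Lefty2 therefore lay far above the middle of the genes that share their site, and whether the site accounts for them was not tested.

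Among the ligands, Nodal (chromosome 10, 60880720 to 60888086, plus strand, 1 isoform) measured 33.0 and 32.2 FPKM with doxycycline and 52.0 and 52.4 FPKM without. The libraries of each group nearly coincided and the groups were well separated. The log2 change was 0.67 (SE 0.08, limma adjusted p = 0.00405), with 0.65 and 0.70 between same-numbered libraries. Gdf3 (chromosome 6, 122555421 to 122560105, minus strand), a related ligand that also signals through Tdgf1 and activin receptors, was more abundant, at 117 and 103 FPKM with doxycycline and 129 and 122 FPKM without. Its groups did not overlap, as for 73.1% of all genes tested in either direction, and its log2 change of 0.19 (SE 0.10) did not pass (limma adjusted p = 0.189). With the library number as a replicate block Gdf3 passed (limma adjusted p = 0.02865), the only 1 of 16 alternatives in which it did.

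The ratio of inhibitor to ligand transcripts therefore differed between the groups. Lefty1 and Lefty2 together stood at 1.71 and 1.94 times the FPKM of Nodal with doxycycline and at 7.25 and 6.95 times without. The FPKM of Gdf3 was 3.55 and 3.21 times that of Nodal with the drug and 2.48 and 2.32 times without. These ratios are of FPKM, which is per length, and say nothing of protein.

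Tdgf1 (chromosome 9, 110818342 to 110848571, minus strand), the membrane-anchored co-receptor, was the most abundant of the 10 genes. It measured 405 and 380 FPKM with doxycycline and 443 and 390 FPKM without. The groups overlapped, and the log2 change of 0.08 (SE 0.11) did not pass (limma adjusted p = 0.569). Its FPKM was 12.3 and 11.8 times that of Nodal with doxycycline and 8.53 and 7.43 times without.

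The receptors were expressed at low levels. Acvr1b (chromosome 15, 101004535 to 101044109, plus strand, 1 isoform), which encodes the type I receptor ALK4, measured 8.86 and 8.63 FPKM with doxycycline and 12.5 and 11.4 FPKM without. Acvr2b (chromosome 9, 119311203 to 119349465, plus strand), a type II receptor, measured 9.77 and 8.75 FPKM with doxycycline and 11.9 FPKM in both libraries without. In neither gene did the groups overlap, and both were called higher. The log2 changes were 0.43 (SE 0.09, limma adjusted p = 0.0188) for Acvr1b and 0.35 (SE 0.09, limma adjusted p = 0.0347) for Acvr2b.

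Neither receptor call held under every alternative. With all 4 libraries kept, the limma adjusted p with the most abundant isoform alone was 0.0714 for Acvr1b and 0.485 for Acvr2b. Leaving out a library also leaves the test fewer degrees of freedom. The limma adjusted p of Acvr1b was 0.0649 without the doxycycline library numbered 0, 0.0869 without the one numbered 1 and 0.0760 without the drug-free library numbered 0. Over 16 alternatives it ranged from 0.00504 to 0.0869. For Acvr2b the limma adjusted p was 0.0668 and 0.209 without the doxycycline library numbered 0 or 1, and 0.102 and 0.0934 without the drug-free library numbered 0 or 1. It ranged from 0.0115 to 0.485 over the alternatives.

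Acvr2b had 6 usable isoforms. Its form of 8847 nt was at 6.80 ± 0.156 FPKM with the drug and 7.44 ± 0.0124 off it. A form of 8820 nt measured 2.39 and 0.660 FPKM with and 4.02 and 2.43 FPKM without. Most of the difference in the summed value therefore came from the shorter of these 2 nearly equal forms, and with the most abundant isoform alone the log2 change was 0.12 (limma adjusted p = 0.485). Acvr2a, the other activin type II receptor, stood at 5.61 and 4.39 FPKM with doxycycline and 5.42 and 4.31 without, with overlapping groups (limma adjusted p = 0.874). Acvr1c, the type I receptor ALK7, was at 0.0034 and 0.0052 FPKM with doxycycline and listed at 0 without. Cfc1, a relative of Tdgf1, stayed under 0.2 FPKM in every library.

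The transducers Smad2 and Smad3, which encode closely related receptor-regulated Smads, had unequal values. Smad3 (chromosome 9, 63494539 to 63605801, minus strand) measured 4.64 and 4.90 FPKM with doxycycline and 8.94 and 9.05 FPKM without. The groups were well separated, and the log2 change was 0.85 (SE 0.09, limma adjusted p = 0.00305). Smad2 (chromosome 18, 76400909 to 76472078, plus strand) measured 22.5 and 26.2 FPKM with doxycycline and 23.0 and 26.2 FPKM without. Here the library number made a larger difference than the drug, and the log2 change was 0.01 (SE 0.12, limma adjusted p = 0.929). Its sign turned under 5 of 16 alternatives, medians set equal among them (-0.05). Smad2 was the more abundant of the pair in every library. The ratio of Smad3 to Smad2 was 0.206 and 0.187 with doxycycline and 0.388 and 0.346 without.

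The Smad3 rise lay in the full-length form of 5090 nt, which has 9 exons and measured 4.15 ± 0.0849 FPKM with doxycycline and 7.35 ± 0.190 without. Smad2 is known to occur with and without its exon 3, an insert in the DNA-binding domain that Smad3 lacks. In the assembly that exon is number 3 of 11 and 90 nt long. The form lacking it, of 2015 nt, was compared with the form of 2105 nt alone, and the other Smad2 isoforms were left out. It made up 7.61% and 6.0% of the FPKM of this pair with doxycycline and 6.76% and 9.37% without, so the groups overlapped.

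Foxh1 (chromosome 15, 76498588 to 76500719, minus strand), the forkhead factor that ties activated Smads to DNA, measured 36.6 and 37.8 FPKM with doxycycline and 39.0 and 44.4 FPKM without. The groups did not overlap and the log2 change of 0.16 (SE 0.10) did not pass (limma adjusted p = 0.238). Its 3 isoforms did not move together. The annotated form of 1306 nt measured 22.4 ± 1.28 FPKM with doxycycline and 21.5 ± 4.48 without. A form of 1327 nt with 2 exons measured 11.3 and 13.8 FPKM with doxycycline and 17.2 and 17.1 FPKM without. With the annotated form alone the change was -0.07, so the direction for Foxh1 depends on how isoforms are summed. The ends of Foxh1 overlap Kifc2 on the other strand. The libraries mark strand, but whether the authors' counting used it is not given in the sources used here.

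Ordered by FPKM with doxycycline, the genes ran from Tdgf1 (393) through Gdf3 (110), Foxh1 (37.2), Lefty1 (34.2), Nodal (32.6), Lefty2 (25.3), Smad2 (24.4), Acvr2b (9.26) and Acvr1b (8.74) to Smad3 (4.77). Neighbours whose libraries overlapped were Lefty1 and Nodal, Lefty2 and Smad2, and Acvr2b and Acvr1b. Without doxycycline Lefty1 (233) and Lefty2 (138) came after Tdgf1 (416) and before Gdf3 (125), with Lefty2 and Gdf3 overlapping. The order of the rest was Nodal (52.2), Foxh1 (41.7), Smad2 (24.6), Acvr1b (11.9), Acvr2b (11.9) and Smad3 (9.0), and Acvr1b and Acvr2b again overlapped. Lefty1 and Lefty2 thus passed both Foxh1 and Gdf3 in mean level between the groups.

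**Figure D3:**
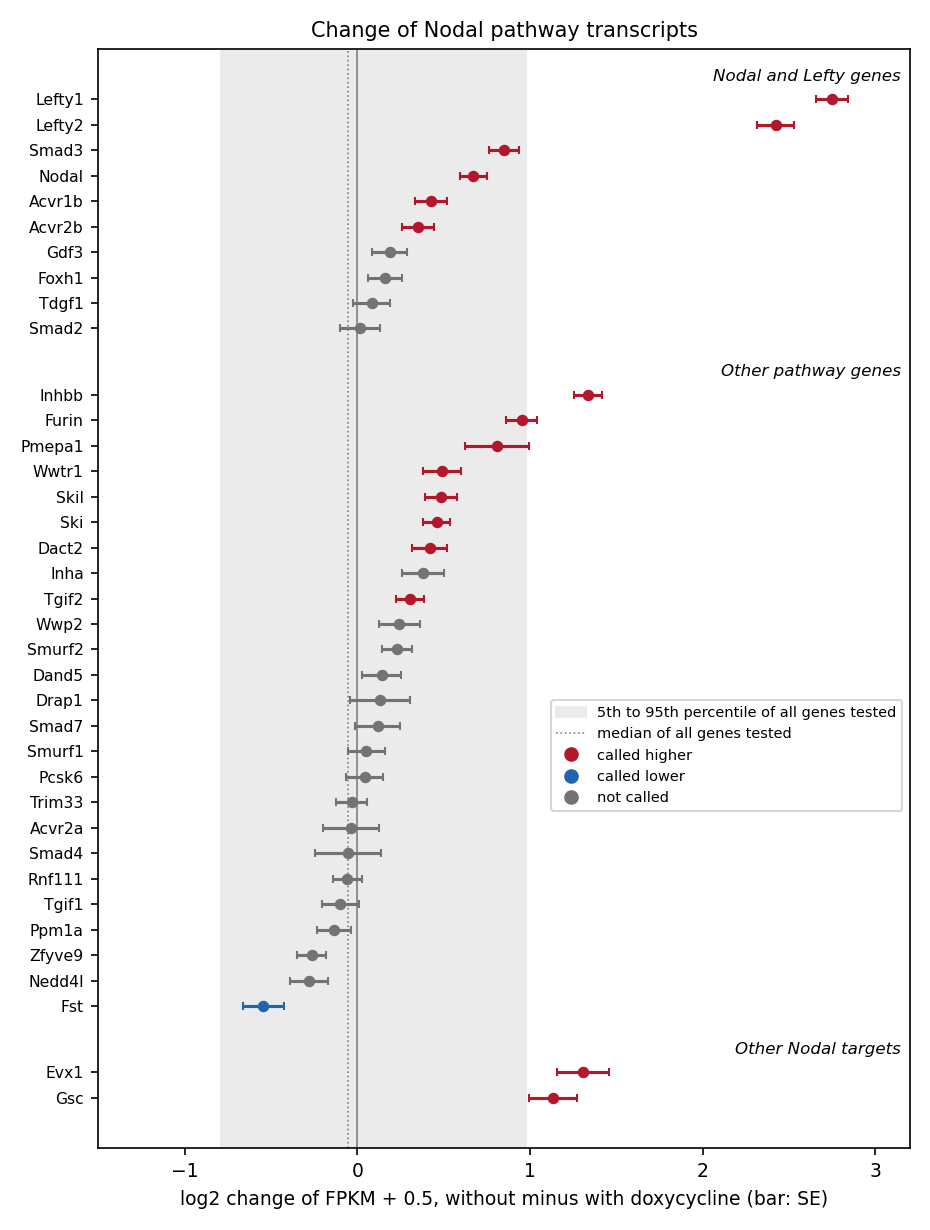
Log2 change of FPKM + 0.5 (horizontal axis, without minus with doxycycline, bars show the SE) of the 10 genes, the 25 other pathway genes tested and 2 further Nodal targets. Red marks genes called higher by limma, blue lower and grey not called, with the band covering the 5th to 95th percentile of all genes tested (-0.79 to 0.97); Lefty1, Lefty2, Inhbb, Evx1 and Gsc lie above the band.

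The other genes of the pathway changed in both directions. Of 33 further ligands, convertases, receptors, inhibitors, Smads, Smad partners and turnover factors, 32 had a usable isoform (Gdf1 had none) and 25 were tested, all of them above the minimum in both groups. Limma called 8 higher (background 19.7%), 1 lower (background 21.3%) and 16 not, with a median log2 change of 0.13 against -0.06 over all genes. The count of calls in this list fell to 4 without either 1 of the doxycycline libraries, and was 3 with isoforms of class = (exact matches to a known transcript) alone.

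Of the ligands and their processing enzymes, Inhbb and Furin rose. Inhbb, the beta B subunit of activin B, measured 15.4 ± 0.607 FPKM with doxycycline and 39.7 ± 0.214 without (log2 change 1.33, SE 0.08, limma adjusted p = 0.00161). Furin, a convertase that cleaves the Nodal precursor, went from 6.48 ± 0.0195 to 13 ± 0.873 FPKM (0.95, SE 0.09, limma adjusted p = 0.00263). Pcsk6, the other convertase known to process Nodal, was at 19.8 ± 0.726 and 20.5 ± 2.42 FPKM and did not pass (limma adjusted p = 0.772). Inhba, the activin A subunit, was at or near 0 in every library.

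Of the extracellular inhibitors outside the Lefty pair, Fst fell. Fst encodes follistatin, which sequesters activins, and measured 2.26 ± 0.0593 FPKM with doxycycline and 1.40 ± 0.112 without (-0.54, SE 0.12, limma adjusted p = 0.0196). This call was lost without either doxycycline library (limma adjusted p = 0.0720 and 0.0600) or without the drug-free library numbered 0 (0.0692), the range over alternatives being 0.0121 to 0.0720. Dand5, a Nodal antagonist, stood at 1.61 and 1.62 FPKM with doxycycline and 1.85 and 1.82 without (limma adjusted p = 0.352), and Inha, the inhibin alpha subunit, at 1.38 ± 0.0436 and 1.94 ± 0.183 (limma adjusted p = 0.0592). Cer1, a further secreted Nodal antagonist, was under 0.02 FPKM throughout. Of the other Nodal antagonists named, only Dand5 was tested, and it showed no rise as large as that of Lefty1 and Lefty2. A difference between Dand5 and the Lefty pair was not tested.

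Inside the cell, the common partner Smad4 was at 22.8 and 28.0 FPKM with doxycycline and 20.5 and 28.8 without (limma adjusted p = 0.832). The inhibitory Smad7 was at 27.6 and 24.0 FPKM with and 30.9 and 25.3 without (limma adjusted p = 0.503). Neither passed, and in both the groups overlapped. Skil, a co-repressor of Smads, rose from 17.99 ± 0.962 to 25.4 ± 1.78 FPKM (0.48, SE 0.09, limma adjusted p = 0.0149), a call lost without the library numbered 0 of either group (limma adjusted p = 0.0783 and 0.0533, range over alternatives 0.0065 to 0.13). Wwtr1 (TAZ), which binds Smad complexes, rose from 9.05 ± 0.875 to 12.9 ± 1.10 FPKM (0.49, SE 0.11, limma adjusted p = 0.0227), a call lost without the doxycycline library numbered 1 (0.101) or the drug-free library numbered 0 (0.0818), with a range over alternatives of 0.00292 to 0.101. Pmepa1, a membrane protein that limits Smad activation, had 8.64 ± 0.607 and 15.8 ± 4.13 FPKM (0.81, SE 0.19, limma adjusted p = 0.0230), a call lost with no filter on low values (0.0698) or with class = isoforms alone (0.0559), with a range over alternatives of 0.0041 to 0.0698. The remaining genes of this list called higher, named after their values were seen, were Ski, Dact2 and Tgif2, with log2 changes of 0.46, 0.42 and 0.31.

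Genes that Nodal signalling is known to activate were read from a list, of which 16 are given here, among them Lefty1, Lefty2, Nodal and Tdgf1. Of these, 9 were tested, 7 were called higher (background 19.7%) and none lower. Gsc and Evx1 passed the expression minimum only through the group without doxycycline, so that the count is not evidence by itself. Of the 12 targets outside the 10 genes, 5 were tested and 4 were called higher (background 19.7%): Evx1, Gsc, Pmepa1 and Skil. Pmepa1 and Skil also belong to the other pathway genes above, so their calls are counted in both lists.

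Gsc and Evx1, homeobox genes of the primitive streak, went from 0.312 ± 0.0125 to 1.28 ± 0.0215 FPKM (1.13, SE 0.14, limma adjusted p = 0.00442) and from 0.431 ± 0.113 to 1.79 ± 0.00965 FPKM (1.31, SE 0.15, limma adjusted p = 0.00397). These 2 genes rose to low levels. Other streak targets stayed below 1 FPKM on average in both groups, among them Eomes at 0.975 ± 0.0609 and 0.856 ± 0.183 FPKM, Mixl1 at 0.121 and 0.331 FPKM, and T (Brachyury), which was listed at 0 in both libraries without doxycycline.

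Marker sums of other cell types are given beside these changes. The summed FPKM of 6 mesendoderm markers, which include Gsc and Evx1, lay between 1.91 and 2.15 with doxycycline and 4.24 and 4.56 without, and 3 of the 6 stayed under 1 FPKM in every library. For 7 primitive endoderm markers the sum was 85.4 to 90.2 with and 160.0 to 165.2 without, with 5 of the 7 under 1 FPKM throughout. That sum was nearly all Sparc, which was called higher (85.6 and 160.7 FPKM). Gata4 was called higher too (0.656 and 1.33 FPKM, limma adjusted p = 0.0350) but passed the minimum only through the group without doxycycline. Sox7 (0.663 and 0.572 FPKM with, 0.0482 and 0.0549 without), Dab2 (0.716 and 0.877 with, 0.171 and 0.277 without) and Gata6 (means of 0.0745 and 0.0417) had lower values without it and were too low to be tested. Pdgfra (means of 0.0915 with and 0.169 FPKM without) and Sox17 (0.0109 and 0.0417) had higher values without doxycycline and were also too low to be tested. The 5 trophoblast markers were all under 1 FPKM in every library, as were 6 of the 7 mesenchymal and fibroblast markers, of which Col3a1 and Postn were listed at 0. The 5 primed epiblast markers summed to 60.3 to 67.5 FPKM with and 41.7 to 45.4 without doxycycline, among which Otx2 was higher (10.6 and 20.1 FPKM, limma adjusted p = 0.00348, but 0.221 with the most abundant isoform alone and 0.00111 to 0.221 over the alternatives) while Dnmt3b (48.4 and 20.5 FPKM, limma adjusted p = 0.00258) and Pou3f1 (2.56 and 0.898 FPKM, limma adjusted p = 0.00475) were lower. The 10 embryonic stem cell markers summed to 3875 to 4386 FPKM with and 4046 to 4680 without, and Dppa5a was the largest part of that sum (1492 to 2150 FPKM). Within the list 3 genes were called higher (Nanog, Tcfcp2l1 and Fgf4, with log2 changes of 0.54, 0.55 and 0.83), 3 were called lower (Zfp42, Klf4 and Utf1, at -0.49, -0.42 and -0.61) and 4 were not called. The Nanog call was lost without the doxycycline library numbered 0 (limma adjusted p = 0.173) or 1 (0.0503) or the drug-free library numbered 1 (0.0986), with a range over alternatives of 0.00164 to 0.219. The 4 neural markers summed to 69.7 to 74.1 FPKM with and 63.9 to 76.7 without, and Nes was called higher (2.17 and 4.63 FPKM, log2 change 0.94, limma adjusted p = 0.00416). Most of that sum was Tubb3, which was not called (64.9 and 60.7 FPKM, limma adjusted p = 0.499). Pax6 was not called either (4.71 and 4.92 FPKM, limma adjusted p = 0.890), and Sox1 was too low to be tested. Markers other than Pou5f1, Nanog, Sparc, Otx2, Dnmt3b and Tubb3 were named after their values were seen. The part of these markers in the changes of the Nodal pathway genes was not tested.

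The genes whose values over the 4 libraries were most like those of Lefty1, by Euclidean distance between centred log2(FPKM + 0.5) values, were Naaa (distance 0.178), Aqp3 (0.248) and Chit1 (0.25). Naaa, a lysosomal amidase, measured 4.47 and 4.26 FPKM with doxycycline and 32.2 and 30.7 without. Aqp3, a water and glycerol channel, measured 10.3 and 9.44 FPKM with and 75.9 and 78.1 without. Chit1, a chitinase, measured 0.182 and 0.334 FPKM with and 5.55 and 4.71 without. With 4 libraries in 2 groups, such a likeness mainly says that the genes rose by a similar amount on this scale, from 2.72 to 2.90. For Chit1 it rests on the added 0.5: its mean FPKM was 19.9-fold higher without doxycycline, against 7.21-fold for Naaa, 7.79-fold for Aqp3 and 6.81-fold for Lefty1, and its log2 change was 3.90 with 0.1 added and 2.28 with 1. Chit1 also passed the minimum of 1 FPKM only through the group without doxycycline.

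**Figure D4:**
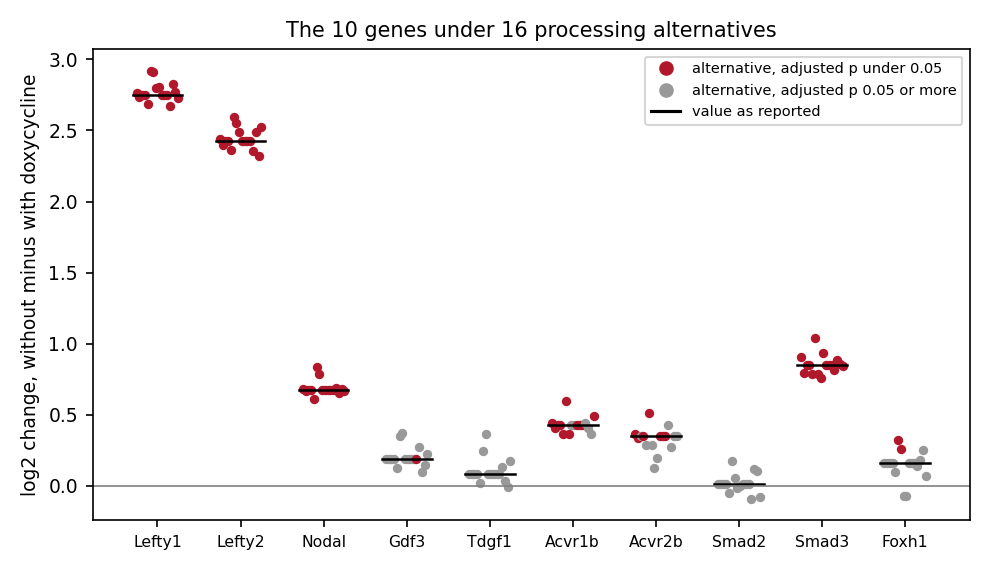
Log2 change (vertical axis, without minus with doxycycline) of each of the 10 genes under 16 processing alternatives, red where limma's adjusted p was under 0.05 and grey where it was not, with a black line at the reported value. Lefty1, Lefty2, Nodal and Smad3 are red under all 16, Acvr1b under 11 and Acvr2b under 7.

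Lefty1, Lefty2, Nodal and Smad3 were called higher under all 16 alternatives tried, with log2 changes of 2.67 to 2.92, 2.32 to 2.60, 0.61 to 0.84 and 0.76 to 1.04. Acvr1b was called in 11 (0.36 to 0.59) and Acvr2b in 7 (0.12 to 0.51). Gdf3 was called in 1, Foxh1 in 2, and Tdgf1 and Smad2 in none.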

How the data were processed

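Of the 6 samples of the series, the 4 UTP-method libraries of the TT-FHAgo2 line were used, 2 per group, and 2 spike-in libraries were not analysed here. The authors deposited FPKM per assembled isoform, made with TopHat2 2.0.9 and Cufflinks 2.1.1 on NCBIM37, per the submitters' processing notes. Which library total scales the FPKM is not given in the sources used here. Of 181027 isoforms, 31251 had no gene name, and 8207 were shorter than 200 nt or neither matched nor shared a junction with a known transcript. The other 141569 were summed by the file's symbol, with the symbols of 236 isoforms that had turned into dates restored from a second deposited table. Isoforms under 200 nt held 98.9% to 99.6% of a library's summed FPKM, and removing them is part of the rule that defines these genes.

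Genes averaging 1 FPKM or more in either group went into limma 3.58.1 in R 4.3.3 (trend; degrees of freedom 2 residual, 3.21 prior) on log2(FPKM + 0.5), without a block, since the numbers 0 and 1 could not be tied to the replicate numbers of the labels. The number still went with a difference found in both groups, in the steps described below, and the main fit leaves it in the residual spread. With the number as a block 7 of the 10 genes were called, against 6. The procedure was tested on simulated data. Depth was read from the steps between low values, which were whole fragments (within 0.1) for 100% of values in the libraries numbered 1 and for 33.0% and 32.1% in the others. Named were the 10 genes, the 5 largest calls in each direction of 2 further lists, the receptors, convertases, ligands and Smads, 3 genes most like Lefty1, Ago2 and markers. A gene of the target list is not reported here. The genes and lists were chosen with earlier results of these data known. Seed matches were searched in the longest 3′ untranslated region per symbol of GENCODE release 21, and Python 3.11.15 with pandas 2.3.3, numpy 2.4.6 and matplotlib 3.10.9 was used otherwise.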

Additional observations from a re-analysis of the deposited data

How the results depend on the processing

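Of the 5417 genes called (2608 higher, 2809 lower), 2053 (1067 and 986) were called with the most abundant isoform alone, 2590 (1277 and 1313) with isoforms of class = alone and 4011 higher with TPM. Of the other pathway genes, 9 were called (8 higher, 1 lower). The count was 4 (4 higher, 0 lower) with the most abundant isoform and 3 (3 higher, 0 lower) with class = alone, and the number lower was 0 with no filter, 3 with medians set equal and 3 with quantile normalization. Taking the library number as a replicate block gave 8157 calls (4530 lower) and 14 pathway calls (3 lower). The numbers are not tied to cultures, and deviations of same-numbered libraries from their group mean correlated at 0.461 over 13207 genes. With 2 libraries a group these deviations are equal and opposite, so the 2 pairs hold 1 independent comparison. Leaving out 1 library at a time gave 3541 (1757 lower) and 3285 (1438 lower) calls without the doxycycline library numbered 0 or 1, 3741 (1693 lower) and 4427 (2501 lower) without the drug-free library numbered 0 or 1, and 4 to 8 pathway calls (4 to 6 higher, 0 to 2 lower). The 10 genes gave 4 to 5 calls and the targets 6 to 7, against 6 and 7. With fewer libraries the test has fewer degrees of freedom, and a group of 1 library is assumed to vary like the other; the cause of the other shifts was not tested.

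Directions turned for genes not called. With medians set equal Smad2 was at -0.048 and Pcsk6 at -0.020. With TPM Acvr2a was at 0.12, Smad4 at 0.10, Pou5f1 at 0.010 and Tubb3 at 0.061, and with quantile normalization Pou5f1 at 0.17 and Tubb3 at 0.055. With the most abundant isoform Foxh1 was at -0.070, Smad2 at -0.018, Pcsk6 at -0.24 and Tubb3 at 0.11, and with class = alone Foxh1 at -0.070, Smad2 at -0.0055, Acvr2a at 0.0086 and Tubb3 at 0.11. Leaving out 1 library turned Smad2 (-0.092 and -0.077), Acvr2a (0.12), Smad4 (0.092 and 0.19), Tdgf1 (-0.0099), Smad7 (-0.024), Tubb3 (0.022) and Pcsk6 (-0.075). With 2 libraries a group, small changes such as those of Gdf3 and Foxh1 are not resolved, and the depth of the libraries numbered 0 is unknown.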

Other observations

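Promoter windows of RefSeq (GRCm38.p6, around the annotated start) were matched for 5 of the 10 genes: Nodal, Tdgf1, Acvr1b, Acvr2b and Smad3. The Foxh1 core AATNNACA, searched on both strands, is present in 12.2% of 32851 windows and was found in that of Tdgf1 only. The Smad element CAGAC, also on both strands, is present in 49.6% of windows and was found in those of Tdgf1 and Acvr2b. Nodal, Acvr1b and Smad3, all called higher without doxycycline, had neither set of letters in the window. Acvr2b, also called higher, had the Smad element alone, and Tdgf1, which had both, was not called. Lefty1 and Lefty2 had no window to search. A match or its lack describes the letters of this window alone.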
